A study of Homo sapiens with 12 samples.

Results

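All samples of spheroid origin were compared with all samples of parental origin, whether they were grown in culture or as tumours. Samples were assigned by the word spheroid or parental in their title, which placed all 12 samples of the series, 6 of spheroid origin and 6 of parental origin, and growth site entered the comparison as an additive factor. The cells were all NCI-H1299, a human line established from a non-small cell lung cancer. The 3 spheroid cultures were floating cells collected from a medium made for cancer stem cells and kept in flasks that hinder attachment, and the 3 parental cultures were grown in medium with serum. The 3 spheroid xenografts and the 3 parental xenografts were tumours grown in animals from these 2 kinds of cell. RNA was hybridised to Affymetrix expression arrays, 1 per sample, and 19775 genes were read, each by the brightest of its probe sets that carries a single gene symbol. Values are on a log2 scale, so that a difference of 1 is a 2-fold difference.

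Spheroid culture selects cells that survive without attachment and without serum, and it is widely used to enrich tumour cells with stem cell properties, such as the capacity to form a tumour from few cells. Medium and attachment change the expression of many genes by themselves. Tumours of both origins grow in the same kind of surroundings, and the comparison asks which genes differed in the same direction there as in culture.

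Both origins are cells of 1 line, so the 6 samples of an origin are not independent tumours. By their titles the samples of a group are biological replicates, but neither the host strain nor the animal of each tumour is given. The p-values therefore cover only the spread between these samples, and some of that spread may be technical. A tumour also holds cells of its host, whose RNA a human probe may read in part, and in bulk RNA fewer cells of a type and less RNA per cell cannot be told apart. Of 18 measured genes that mark lung lineages none differed by origin, and NKX2-1, the transcription factor of the distal lung, stood at group means of 6.63 to 6.77. The epithelial markers CDH1 (4.47 to 4.59) and EPCAM (4.12 to 4.26) had group means below the lower quartile of every array (4.63 to 4.80), whereas VIM, the mesenchymal filament protein vimentin, stood at 14.2 to 14.7.

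Some arrays stood apart. Signal at the 5′ end of 18S ribosomal RNA was low on parental culture replicates 1 and 2, at 6.96 and 10.5, while all other arrays read 12.2 to 13.3. The interquartile range of the log2 values was lowest on parental culture replicate 1 (2.82) and highest on parental culture replicate 2 (3.44). The counts by origin are therefore also given without those 2 arrays. Spheroid culture replicate 1 lay nearest to the parental cultures of the 3 spheroid cultures in 181 of the 229 genes that kept the difference (79%).

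By limma, 279 of the 19775 genes (1.41%) differed between spheroid-origin and parental-origin samples at an adjusted p under 0.05, 117 of them higher (0.592%) and 162 lower (0.819%) in spheroid origin. A gene was taken to have kept the difference where it passed this test and its 3 spheroid values lay all above, or all below, its 3 parental values in culture and again, in the same direction, in xenografts. This held for 229 genes (1.16%), 95 higher (0.48%) and 134 lower (0.678%). Without the test, 549 genes (2.78%) were separated in that way at both sites. The median difference of the 95 higher genes was 0.892 in culture and 0.777 in xenografts, and that of the 134 lower genes was -1.24 in culture and -1.06 in xenografts. Over all genes the median difference was 0.0698 in culture and 0.0187 in xenografts.

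Of the 229 genes that kept the difference, 94 differed by at least 1 log2 unit at each site, 31 of them higher and 63 lower. In 153 of the 229 genes the difference was larger in culture and in 76 it was larger in xenografts, and the smaller difference had a median of 0.725 of the larger. None of the 229 passed the test of the interaction of origin and site, in which 27 of all genes passed (0.137%), and 32 had an unadjusted interaction p under 0.05. These genes were chosen for the same direction at both sites and for a small residual in the additive fit, which holds the interaction, so that few such calls follow from the choice. That test is less precise, with a median SE of 0.285, against 0.143 for the difference by origin.

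**Figure D1:**
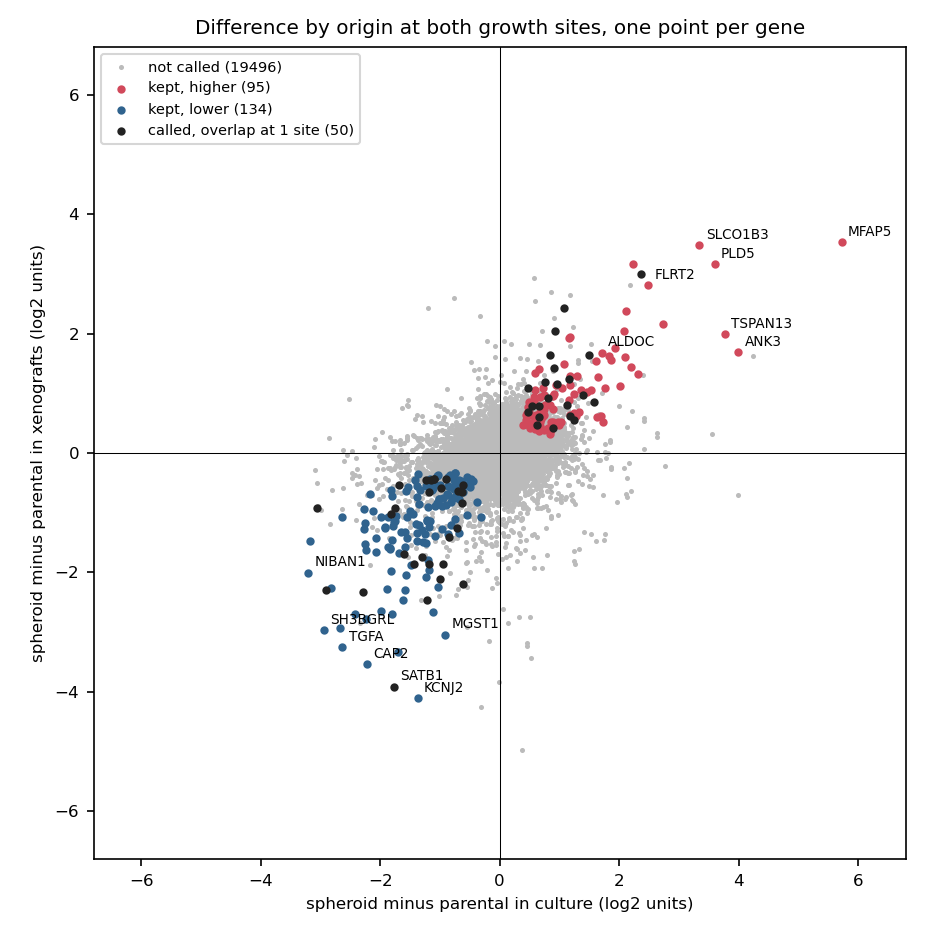
Each point is a gene, with its log2 difference of spheroid minus parental in culture on the horizontal axis and in xenografts on the vertical axis. Red points are the 95 genes that kept a higher level, blue points the 134 that kept a lower level, black points the 50 that differed by origin but overlapped at 1 site, and grey points all other genes. All coloured and black points lie in the quadrants where both differences have the same sign, with MFAP5 farthest to the upper right and KCNJ2 lowest.

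The count depended on single arrays. It was 163 genes by origin, 160 of them separated at both sites, without parental culture replicates 1 and 2. Only 1 parental culture is then left, so separation in culture is met more easily than in the main count. Leaving out 1 array at a time gave 62 to 500 genes by origin. The lowest counts were without spheroid culture replicate 2 (62), spheroid xenograft replicate 2 (65) and spheroid culture replicate 3 (75). The highest was without spheroid culture replicate 1 (500). Of the 229 genes, 53 passed whichever single array was left out, and these included 13 of the 24 genes that are described first below: MFAP5, PLD5, HCG4, CREG1, TSPAN13, FGD4, ALDOC, SH3BGRL, FBN2, OSBPL6, CAP2, NIBAN1 and PCDH7. When the array with the widest spread of values was left out of every group, a choice made after seeing the data that leaves 8 arrays, 3 genes passed: MFAP5, the autophagy gene ATG12 and the neuronal membrane protein SLITRK5. Without parental culture replicates 1 and 2, SLCO1B3, ARHGAP29, BCL2A1, ANK3, TGFA and MAN1A1 of the 24 did not pass (limma adjusted p = 0.0601 to 0.11).

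Of the genes that kept a higher level, MFAP5 had the largest difference. It encodes a glycoprotein of the extracellular microfibrils. MFAP5 read 9.98, 11.61 and 11.93 in spheroid cultures, against 5.82, 5.41 and 5.10 in parental cultures, and 10.75, 11.51 and 10.96 in spheroid xenografts, against 5.80, 6.73 and 10.12 in parental xenografts. The groups did not overlap at either site, and parental xenograft replicate 3 was the parental tumour nearest to the spheroid tumours. The difference was 5.73 (SE 0.86) in culture and 3.53 (SE 0.86) in xenografts, and 24.7-fold over both sites at 4.63 (SE 0.67, limma adjusted p = 0.00807). All 3 of its probe sets had this direction at both sites.

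PLD5, a member of the phospholipase D family, read 8.23, 9.88 and 9.91 in spheroid cultures, against 6.75, 5.49 and 4.98 in parental cultures, and 8.11, 8.94 and 9.32 in spheroid xenografts, against 5.63, 5.53 and 5.71 in parental xenografts. Neither site overlapped, and the 3 parental xenografts were nearly equal. PLD5 was 10.4-fold higher in spheroid origin, with a difference of 3.38 (SE 0.35, limma adjusted p = 0.00362). TSPAN13, a tetraspanin membrane protein, read 10.57, 12.63 and 12.73 in spheroid cultures, against 8.58, 8.53 and 7.50 in parental cultures, and 12.40, 12.61 and 12.56 in spheroid xenografts, against 10.06, 11.19 and 10.33 in parental xenografts. The groups did not overlap at either site, and the parental xenografts lay above the parental cultures. The gap of TSPAN13 was 3.77 (SE 0.51) in culture and 2.0 (SE 0.51) in xenografts. The additive difference of TSPAN13 was 2.88 (SE 0.43, limma adjusted p = 0.00935).

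The next genes act on glucose, on small GTPases and in lysosomes. ALDOC, the aldolase C of glycolysis, read 8.34, 9.33 and 8.89 in spheroid cultures, against 7.41, 6.57 and 7.44 in parental cultures, and 8.66, 8.83 and 9.02 in spheroid xenografts, against 7.03, 7.47 and 6.97 in parental xenografts. Its gap was nearly the same at both sites, 1.71 (SE 0.28) in culture and 1.68 (SE 0.28) in xenografts, with an additive difference of 1.70 (SE 0.19, limma adjusted p = 0.00414). FGD4, an exchange factor that activates the GTPase CDC42, read 7.18, 7.54 and 7.86 in spheroid cultures, against 5.85, 5.75 and 5.18 in parental cultures, and 7.09, 8.26 and 8.52 in spheroid xenografts, against 6.24, 6.10 and 6.27 in parental xenografts. All 3 FGD4 probe sets agreed, and the difference was 1.84 (SE 0.22, limma adjusted p = 0.0048). CREG1, a glycoprotein of the lysosome, read 7.97, 9.50 and 10.05 in spheroid cultures, against 7.38, 7.49 and 6.41 in parental cultures, and 7.48, 7.94 and 8.16 in spheroid xenografts, against 6.06, 5.28 and 6.14 in parental xenografts. Its mean was lower in xenografts than in cultures of the same origin, and the gap by origin was 2.08 in culture and 2.04 in xenografts.

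Other genes kept a higher level with more spread. SLCO1B3, an uptake transporter for organic anions best known from hepatocytes, read 5.86, 9.48 and 10.11 in spheroid cultures, against 5.39, 4.99 and 5.03 in parental cultures, and 9.79, 10.14 and 10.17 in spheroid xenografts, against 4.39, 7.40 and 7.86 in parental xenografts. Spheroid culture replicate 1 lay only just above the parental cultures, and SLCO1B3 did not pass in 6 of the 12 fits without a single array. FLRT2, a membrane protein of cell adhesion, differed by 2.49 in culture and 2.82 in xenografts, and ARHGAP29, a GTPase-activating protein, by 2.23 in culture and 3.17 in xenografts. BCL2A1, an anti-apoptotic protein of the BCL2 family, differed by 2.73 in culture and 2.16 in xenografts, with both parental groups below the lower quartile of all values, where a level is poorly measured. The same held for HCG4, a non-coding gene of the HLA region (2.11 in culture and 2.38 in xenografts). BCL2A1 passed in 3 and ARHGAP29 in 5 of the 12 fits without a single array. ANK3, the adaptor ankyrin G, differed by 4.0 in culture and 1.68 in xenografts, and all of its 5 probe sets had this direction, but without probe sets whose names mark possible cross-hybridisation or shared transcripts another of them gave 0.77 (limma adjusted p = 0.101).

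**Figure D2:**
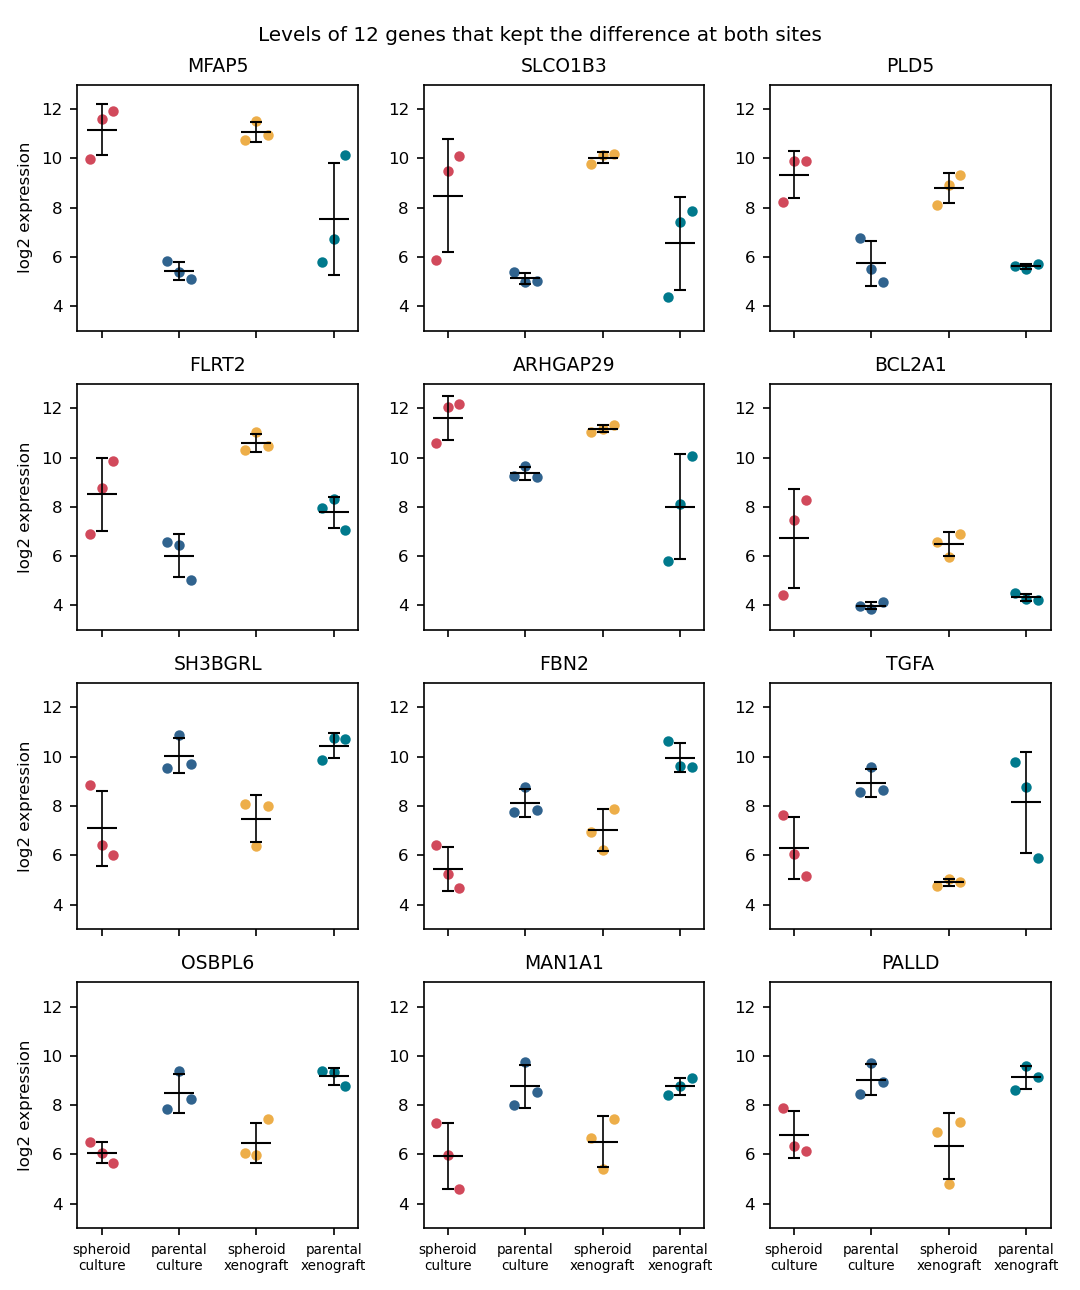
Log2 levels on each array of the 6 higher and the 6 lower genes with the largest difference at the site where it was smaller, 1 panel per gene. Points are arrays in replicate order from left to right, long bars are group means and whiskers are 1 SD over 3 arrays. In every panel the spheroid points do not overlap the parental points at either site, most narrowly for FLRT2, BCL2A1 and SLCO1B3 in culture and for TGFA and MFAP5 in xenografts.

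Among the genes that kept a lower level, SH3BGRL, a small protein related to thioredoxins and encoded on the X chromosome, read 8.84, 6.43 and 6.01 in spheroid cultures, against 9.54, 10.87 and 9.72 in parental cultures, and 8.08, 6.39 and 8.0 in spheroid xenografts, against 9.87, 10.75 and 10.73 in parental xenografts. Every spheroid value, at either site, was below every parental value. SH3BGRL was 7.75-fold lower in spheroid origin, with the same difference at both sites, -2.95 (SE 0.68) in culture and -2.96 (SE 0.68) in xenografts, and an additive difference of -2.96 (SE 0.46, limma adjusted p = 0.0128). FBN2, the microfibril protein fibrillin-2, read 6.42, 5.25 and 4.69 in spheroid cultures, against 7.75, 8.79 and 7.85 in parental cultures, and 6.95, 6.22 and 7.89 in spheroid xenografts, against 10.64, 9.63 and 9.59 in parental xenografts. Its mean was higher in tumours than in cultures of the same origin, and the gap by origin was -2.68 (SE 0.50) in culture and -2.93 (SE 0.50) in xenografts. Of its 3 probe sets 1, the brightest, had this sign at both sites, so the direction of FBN2 rests on that probe set. MFAP5 and FBN2 were the only members of a list of 25 matricellular and microfibril proteins to pass, in opposite directions.

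TGFA, a ligand of the epidermal growth factor receptor, read 7.64, 6.04 and 5.17 in spheroid cultures, against 8.56, 9.57 and 8.63 in parental cultures, and 4.75, 5.03 and 4.92 in spheroid xenografts, against 9.80, 8.78 and 5.87 in parental xenografts. The spheroid xenografts were nearly equal, and parental xenograft replicate 3 was the parental tumour nearest to them. TGFA was 7.68-fold lower in spheroid origin (-2.94 (SE 0.57, limma adjusted p = 0.0273)), but it did not pass without parental culture replicates 1 and 2 (limma adjusted p = 0.0811), nor in 7 of the 12 fits without a single array. On the same list of 30 measured growth factor receptors and ligands of the FGF, EGF and IGF families, IGF1R, the receptor of insulin-like growth factors, was the other gene to pass, and it was higher: it read 8.78, 9.39 and 9.52 in spheroid cultures, against 7.43, 8.29 and 7.57 in parental cultures, and 9.43, 9.77 and 10.18 in spheroid xenografts, against 8.50, 8.50 and 9.29 in parental xenografts. The IGF1R groups did not overlap at either site, and the difference was 1.25 (SE 0.22, limma adjusted p = 0.0175).

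CAP2, an actin-binding protein, read 8.61, 6.85 and 6.87 in spheroid cultures, against 9.15, 9.99 and 9.85 in parental cultures, and 5.87, 6.48 and 7.06 in spheroid xenografts, against 10.53, 10.06 and 9.44 in parental xenografts. The groups were farther apart in tumours, with a difference of -2.22 (SE 0.47) in culture and -3.54 (SE 0.47) in xenografts, and the additive difference was -2.88 (SE 0.37, limma adjusted p = 0.0048). PCDH7, a protocadherin of cell adhesion, read 5.43, 5.41 and 5.08 in spheroid cultures, against 6.96, 7.56 and 6.82 in parental cultures, and 6.42, 5.25 and 6.95 in spheroid xenografts, against 9.33, 8.45 and 8.90 in parental xenografts. All 5 PCDH7 probe sets had this direction. PALLD, the actin-bundling protein palladin, differed by -2.24 in culture and -2.78 in xenografts on its brightest probe set. Without probe sets marked for cross-hybridisation or shared transcripts, another PALLD probe set gave 0.060 over both sites (limma adjusted p = 0.878). EMB, embigin, a partner of lactate transporters, differed by -1.71 in culture and -3.33 in xenografts.

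Lipid and glycan enzymes and signalling proteins made up the rest of the leading lower genes. OSBPL6, of the oxysterol-binding protein family, read 6.52, 6.05 and 5.64 in spheroid cultures, against 7.83, 9.37 and 8.26 in parental cultures, and 6.04, 5.97 and 7.42 in spheroid xenografts, against 9.40, 9.33 and 8.76 in parental xenografts. The groups did not overlap at either site, and OSBPL6 differed by -2.55 (SE 0.30, limma adjusted p = 0.00454). NIBAN1, a protein of the cellular stress response, read 6.91, 5.86 and 5.75 in spheroid cultures, against 8.04, 10.70 and 9.38 in parental cultures, and 6.24, 6.11 and 5.86 in spheroid xenografts, against 7.82, 8.02 and 8.38 in parental xenografts. The parental cultures were the most spread, and their lowest value still lay above the spheroid cultures. MAN1A1, a Golgi mannosidase that trims N-glycans, differed by -2.82 in culture and -2.26 in xenografts, and the zinc finger transcription factor GLIS3 by -1.98 in culture and -2.65 in xenografts. CACHD1, related to the auxiliary subunits of calcium channels, differed by -1.82 in culture and -1.98 in xenografts on its brightest probe set. Without probe sets marked for cross-hybridisation or shared transcripts, another CACHD1 probe set had the opposite sign (0.11, limma adjusted p = 0.828).

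The start regions of these genes were read from RefSeq for GRCh38.p14, and 22 of the 24 had one there. Each window ran from 250 bases before to 50 bases after 1 start per gene. Any other start of the same gene was not searched. A short motif was looked up in them because ZEB2 and SNAI2, which fell in spheroid origin, are factors that bind it, a choice made after seeing the data: the E-box CACCTG, or CAGGTG on the other strand. It was present in 1 of 11 windows of the leading higher genes and in 2 of 11 of the leading lower genes. The first gene of each direction that held it was TSPAN13 (chr7:16753505-16753804, plus strand) and TGFA (chr2:70553397-70553696, minus strand). Both windows are printed 5′ to 3′ with the E-box in capitals, with its first base at position -221 from the start of TSPAN13 and at -42 from the start of TGFA.
TSPAN13: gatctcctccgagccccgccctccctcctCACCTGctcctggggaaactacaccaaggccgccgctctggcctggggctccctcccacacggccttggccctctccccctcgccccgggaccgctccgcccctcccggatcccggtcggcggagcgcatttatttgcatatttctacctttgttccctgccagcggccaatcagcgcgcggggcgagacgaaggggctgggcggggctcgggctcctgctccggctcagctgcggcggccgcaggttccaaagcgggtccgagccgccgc
TGFA: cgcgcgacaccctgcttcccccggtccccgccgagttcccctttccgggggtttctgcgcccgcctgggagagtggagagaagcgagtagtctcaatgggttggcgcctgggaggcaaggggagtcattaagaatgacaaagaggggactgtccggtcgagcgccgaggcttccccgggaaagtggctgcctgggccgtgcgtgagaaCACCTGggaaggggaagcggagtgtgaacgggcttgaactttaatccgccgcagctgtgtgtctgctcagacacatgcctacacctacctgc
Over all genes that kept the difference, the E-box was in 17 of 74 windows of higher genes (23%) and in 15 of 113 windows of lower genes (13.3%), against 3036 of 15384 windows of all genes tested (19.7%). The letters TATAAA or TTTATA were in 10.8% of the windows of higher genes and 2.65% of those of lower genes, against 9.03% of all. The median number of CG pairs in a window was 22 for higher and 25 for lower genes, against 22 for all. A match to a motif is a description of the window and not a bound site.

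Gene lists gave few members each. Of 37 lists of pathways and cell states 22 had at least 1 gene that differed by origin, and of the 867 measured genes of these and of 8 cell type lists 35 differed (4.04%, against 1.41% of all genes), 16 higher and 19 lower. These lists were chosen with earlier results of these data known, so the larger share is not a result about them. Among the 24 measured stem cell markers 0 rose and 1 fell, with a median of 0.00494 against 0.0434 for all genes. The gene that fell was CD44, the hyaluronan receptor that is often used to sort stem-like tumour cells. CD44 read 10.08, 8.88 and 8.84 in spheroid cultures, against 10.50, 11.27 and 11.40 in parental cultures, and 9.99, 9.42 and 9.96 in spheroid xenografts, against 10.81, 11.09 and 11.14 in parental xenografts. All parental samples were above all spheroid samples, 11 of its 13 probe sets had this direction at both sites, and the difference was -1.51 (SE 0.24, limma adjusted p = 0.013). CD44 did not pass when the replicate number within each site was added to the fit as a block. PROM1, ALDH1A1, SOX2 and NANOG, which are also used as stem cell markers, differed by 0.02, 0.05, -0.28 and -0.10 and were not called (limma adjusted p = 0.97, 0.896, 0.24 and 0.824). PROM1 and ALDH1A1 had means below the lower quartile of all values in all 4 groups, so that a change in them may not have been detectable.

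Of 20 mesenchymal genes 0 rose and 2 fell, against 0.819% of all genes that fell. Both are transcription factors that repress epithelial genes. ZEB2 read 4.30, 3.98 and 3.92 in spheroid cultures, against 5.94, 7.46 and 5.54 in parental cultures, and 4.02, 3.95 and 4.60 in spheroid xenografts, against 7.03, 5.35 and 5.07 in parental xenografts. Its spheroid groups had means below the lower quartile of all values, while all 6 parental samples read above the spheroid samples. SNAI2 read 4.0, 4.10 and 4.21 in spheroid cultures, against 4.35, 4.37 and 4.52 in parental cultures, a gap of -0.69 over both sites but small in culture. In xenografts it read 4.34, 4.06 and 4.12 in spheroid xenografts, against 5.27, 5.21 and 5.23 in parental xenografts. The SNAI2 levels in all groups except parental xenografts were below that quartile, and SNAI2 passed in 4 of the 12 fits without a single array. With the replicate number as a block, over all samples or within each site, SNAI2 did not pass. The list had a median of -0.247, with 0.113 in culture and -0.582 in xenografts, and of 19 epithelial junction and keratin genes none passed (median 0.051).

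Of 26 measured interferon response genes 2 rose and 0 fell, and 19 were higher in spheroid origin at both sites and 0 lower at both, against 37.6% of all genes higher at both. BST2, the antiviral membrane protein tetherin, read 8.64, 8.86 and 8.95 in spheroid cultures, against 6.49, 6.52 and 6.51 in parental cultures, and 8.29, 8.51 and 8.51 in spheroid xenografts, against 6.0, 7.49 and 7.83 in parental xenografts. The spheroid samples were close together over both sites, and the parental xenografts ranged more widely below them, with a difference of 1.82 (SE 0.28, limma adjusted p = 0.00967). IFI6, an interferon-induced mitochondrial protein, read 8.22, 7.90 and 8.04 in spheroid cultures, against 7.04, 7.41 and 7.51 in parental cultures, and 9.03, 8.53 and 8.65 in spheroid xenografts, against 7.32, 7.68 and 7.94 in parental xenografts, and it differed by 0.91 (SE 0.14, limma adjusted p = 0.0133). ISG15, a ubiquitin-like protein of the same response, differed by 0.35 in culture and 1.15 in xenografts and did not pass (limma adjusted p = 0.0646). Of 14 genes of MHC class I presentation 1 rose and 0 fell, the peptide transporter TAP1 (0.60 in culture and 0.41 in xenografts). The median difference was 0.264 for the interferon list and 0.336 for the presentation list, against 0.0434 for all genes. Of 19 NF-kappaB targets and cytokines 2 rose and 0 fell, the adhesion molecule ICAM1 (1.70 in culture and 0.62 in xenografts) and the inhibitor NFKBIA (0.70 in culture and 0.66 in xenografts). Without probe sets marked for cross-hybridisation or shared transcripts, another NFKBIA probe set gave 0.11 (limma adjusted p = 0.785). TAP1, ICAM1 and NFKBIA did not pass without parental culture replicates 1 and 2 (limma adjusted p = 0.0632, 0.0809 and 0.0637).

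Signalling lists were mixed. In the Wnt list 0 of 26 rose and 2 fell, the receptor FZD1 (-2.08 in culture and -1.42 in xenografts) and the ligand WNT5B (-1.58 in culture and -1.58 in xenografts). In the TGF-beta and BMP list 0 of 27 rose and 1 fell, the ligand TGFB1 itself. TGFB1 read 9.14, 9.39 and 9.03 in spheroid cultures, against 9.90, 10.27 and 10.44 in parental cultures, and 9.18, 8.98 and 9.36 in spheroid xenografts, against 10.11, 9.90 and 9.82 in parental xenografts. Its origins were separate at both sites, with a difference of -0.89 (SE 0.12, limma adjusted p = 0.0073). However, another TGFB1 probe set gave -0.10 (limma adjusted p = 0.876) without those marked for cross-hybridisation or shared transcripts. Of 20 Notch pathway genes 2 rose, HES4 (1.58 in culture and 0.86 in xenografts) and NRARP (1.25 in culture and 0.56 in xenografts), and neither was separated at both sites. The only probe set read for HES4 is marked for cross-hybridisation. HES4 passed in 5 and NRARP in 4 of the 12 fits without a single array. LATS2, a kinase of the Hippo pathway and a YAP target, was higher by 0.91 in culture and 0.99 in xenografts, and the early response factor JUNB by 1.0 in culture and 0.47 in xenografts.

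Among metabolic, channel and survival genes, ALDOC was the only 1 of 18 glycolysis genes and LSS, lanosterol synthase, the only 1 of 18 cholesterol synthesis genes to pass, LSS with a lower level (-1.39 in culture and -0.55 in xenografts). MGST1, a microsomal glutathione transferase, differed by -0.92 in culture and -3.04 in xenografts and BID, a pro-apoptotic protein, by -1.34 in culture and -0.61 in xenografts. KCNJ2, an inward rectifier potassium channel, read 4.97, 4.99 and 4.56 in spheroid cultures, against 6.69, 6.10 and 5.84 in parental cultures, and 5.11, 4.67 and 4.64 in spheroid xenografts, against 9.55, 9.33 and 7.88 in parental xenografts. The parental xenografts stood above all other samples, with a difference of -1.37 (SE 0.37) in culture and -4.11 (SE 0.37) in xenografts. Its interaction did not pass (limma adjusted p = 0.0794). The calcium-activated channel KCNN4 fell too (-1.19 in culture and -1.24 in xenografts), as did the cancer-testis antigen GAGE1 (-1.62 in culture and -2.46 in xenografts), whose near-identical copies a probe set may not tell apart, the integrin chain ITGA3 (-1.65 in culture and -1.32 in xenografts) and the developmental regulator EYA4 (-1.58 in culture and -2.30 in xenografts). Of the list members named, ZEB2, ITGA3, LSS, HES4, NRARP, FZD1, WNT5B and JUNB did not pass without parental culture replicates 1 and 2 (limma adjusted p = 0.0503 to 0.169). On other probe sets, without those marked for cross-hybridisation or shared transcripts, the difference was -0.81 for ZEB2, 0.71 for LATS2, -0.16 for MGST1 and -0.78 for BID. None of these passed (limma adjusted p = 0.169, 0.0592, 0.679 and 0.0834). The brightest MGST1 probe set has the mark for cross-hybridisation, and those of ZEB2, LATS2 and BID the mark for shared transcripts.

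No called genes came from the lists of the hypoxia response, ATF4 targets, collagens, matrix proteases, S phase, G2 and M phase, aldehyde dehydrogenases, ABC transporters, HOX genes or fatty acid synthesis. The hypoxia list had a median of 0.716 in culture and -0.42 in xenografts, with 4 of 25 genes higher at both sites and 2 lower at both, against 37.6% of all genes higher and 21.7% lower at both. S phase genes had a median of -0.322 in culture and -0.0384 in xenografts, with 15 of 24 lower at both sites and 2 higher at both.

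Markers of cells that a host can add to a tumour were read in all groups, and the cultures show what these probe sets read without a host. Of 97 measured markers on the 8 lists 1 was called (1.03%, against 1.41% of all genes), the fibroblast and lymphatic protein PDPN, which lies on the fibroblast list and was higher in spheroid cultures as well as in tumours (1.87 in culture and 1.56 in xenografts). PDPN did not pass without parental culture replicates 1 and 2 (limma adjusted p = 0.0584). The mean level of the 17 fibroblast genes was 6.24 to 6.38 in spheroid xenografts and 6.24 to 6.83 in parental xenografts, and 6.21 to 6.40 in spheroid cultures and 5.86 to 6.25 in parental cultures. For the 15 endothelial genes it was 5.83 to 6.06 in spheroid xenografts and 5.71 to 6.02 in parental xenografts. In culture it was 5.90 to 6.09 in spheroid and 5.69 to 6.05 in parental samples. For the 12 myeloid genes it was 5.32 to 5.59 in spheroid xenografts and 5.26 to 5.58 in parental xenografts. In culture it was 5.395 to 5.59 in spheroid and 5.09 to 5.58 in parental samples. The mean level of the 9 measured erythroid genes was higher in tumours, at 6.66 to 6.93 in spheroid and 6.51 to 7.14 in parental xenografts. In culture that mean was 5.93 to 6.34 in spheroid and 5.75 to 6.24 in parental samples. HBE1, a globin on that list, had means of 5.21 in spheroid and 5.18 in parental cultures, against 11.5 in spheroid and 11.8 in parental xenografts. GATA1, on the same list, had 7.735 in spheroid and 7.62 in parental cultures, against 7.66 in spheroid and 7.63 in parental xenografts. A mean over 9 genes can follow 1 of them, so it does not show that the erythroid genes rose as a set. By origin HBE1 did not pass (limma adjusted p = 0.925). The share of host RNA in any of these differences was not tested.

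Genes called at 1 site were also read at the other. The fit with 1 mean per group shares its estimate of spread over all 12 arrays, so these genes were not chosen independently of the other site's arrays. In culture 487 genes differed by origin (2.46%). Of the 175 higher ones 120 were higher in xenografts too (68.6%, against 54.2% of all genes), and of the 312 lower ones 245 were lower in xenografts (78.5%, against 45.8% of all genes). In xenografts 46 genes differed by origin (0.233%). Of the 10 higher ones 8 were higher in culture (80%, against 61.7% of all genes), and of the 36 lower ones 28 were lower in culture (77.8%, against 38.3%). Choosing genes by their difference at 1 site by itself favours a smaller median at the other. In either direction of choice the median difference was smaller at the site on which the genes were not chosen. For genes called in culture it was 0.192 in xenografts and 1.13 in culture for higher genes, and -0.239 in xenografts and -1.25 in culture for lower genes. For genes called in xenografts it was 1.44 in xenografts and 0.537 in culture for higher genes, and -2.15 in xenografts and -0.584 in culture for lower genes. A fit on the xenograft arrays alone, added after seeing the data, called 62 higher and 99 lower genes by limma. On the culture arrays, which that fit did not use, 52 of the 62 were higher (83.9%) and 22 were separated in that direction (35.5%, against 7.21% of all genes), and 77 of the 99 were lower (77.8%) and 39 were separated (39.4%, against 6.56%). The culture arrays alone called 8 higher and 7 lower genes, of which 6 and 6 kept the sign in xenografts.

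The genes that kept the difference were unevenly spread over the chromosomes. The X chromosome held 26 of the 134 lower genes (19.4%) and 2 of the 95 higher genes (2.11%), against 3.53% of all measured genes. Chromosome 19 held 21 of the higher genes (22.1%) and 12 of the lower genes (8.96%), against 6.69% of all. Chromosome 6, with 5.52% of all measured genes, held 15 of the lower genes (11.2%) and 3 of the higher genes (3.16%). Chromosome 18, with 1.54% of all, held 7 lower (5.22%) and 1 higher (1.05%). Chromosome 4, with 4.02% of all, held 9 lower (6.72%) and 0 higher. Chromosome 16, with 4.18% of all, held 0 lower and 6 higher (6.32%).

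**Figure D3:**
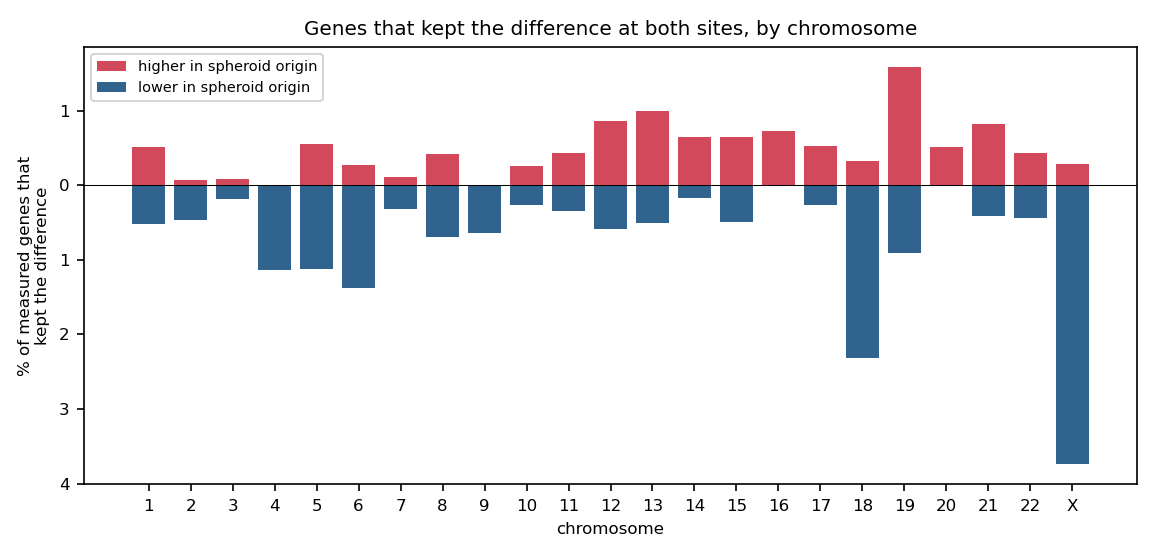
Percentage of the measured genes of each chromosome that kept a higher level (red, above the zero line) or a lower level (blue, below it) in spheroid origin. The bar for lower genes is longest on X (3.74%), followed by chromosome 18 (2.31%), and that for higher genes is longest on chromosome 19 (1.59%).

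To see whether neighbouring genes moved together, genes were ranked by mean level, the lowest 25% were left out, and the rest were cut into 370 windows of about 40 neighbours, and the median difference of each window was taken relative to that of all these genes. This description was chosen after seeing the data and carries no test. In 12 windows the median was at least 0.2 lower in spheroid origin at both sites, and in 2 it was at least 0.2 higher. The longest stretch of lower windows ran on chromosome 6 from PRIM2 to MYB, with 200 genes and a median of -0.605 in culture and -0.339 in xenografts. In it 76% of the genes were lower at both sites, relative to the median, against 29.4% of all genes in windows. Its windows were picked for a low median at both sites, so that a large share follows largely from the choice. The stretch held 11 of the genes that kept a lower level, BCKDHB, NDUFAF4, FAXC, COQ3, POPDC3, CRYBG1, SOBP, MAN1A1, HDDC2, CENPW and EYA4, and none that kept a higher level.

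On the X chromosome 115 genes from IL1RAPL1 to MAGEH1 had a median of -0.366 in culture and -0.271 in xenografts. The 13 of them that kept a lower level were MED14, FUNDC1, CHST7, NDUFB11, RBM10, CDK16, UXT, SUV39H1, GAGE1, CLCN5, NUDT11, GSPT2 and SMC1A. A second X stretch, from GJB1 to CSTF2, with 39 genes (-0.323 in culture and -0.342 in xenografts), held PIN4, ERCC6L, COX7B, SH3BGRL and TSPAN6. TSPAN6 passed in 3 of the 12 fits without a single array, and not without parental culture replicates 1 and 2 (limma adjusted p = 0.0838). Without probe sets marked for cross-hybridisation or shared transcripts, the medians of the stretch were -0.12 in culture and -0.188 in xenografts. Without the widest array of each group its culture median was -0.172. Single windows on chromosomes 3, 9 and 10 were lower at both sites too, but without parental culture replicates 1 and 2 their culture medians were -0.0891, -0.0699 and -0.0521. In culture the groups overlapped for the windows on chromosomes 9 and 10. The chromosome 9 window overlapped in xenografts too, with spheroid xenograft replicate 3 at 0.005 and parental xenograft replicate 2 at -0.002 relative to the site mean. The higher windows lay on chromosome 19, from OLFM2 to TSPAN16-AS1 (0.202 in culture and 0.426 in xenografts) and from MYO9B to PGPEP1 (0.241 in culture and 0.272 in xenografts). Without probe sets marked for cross-hybridisation or shared transcripts, the window from OLFM2 had 0.147 in culture and 0.246 in xenografts. The window that starts at MYO9B held 6 genes that kept a higher level, NR2F6, BST2, UNC13A, FCHO1, JAK3 and MAST3.

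**Figure D4:**
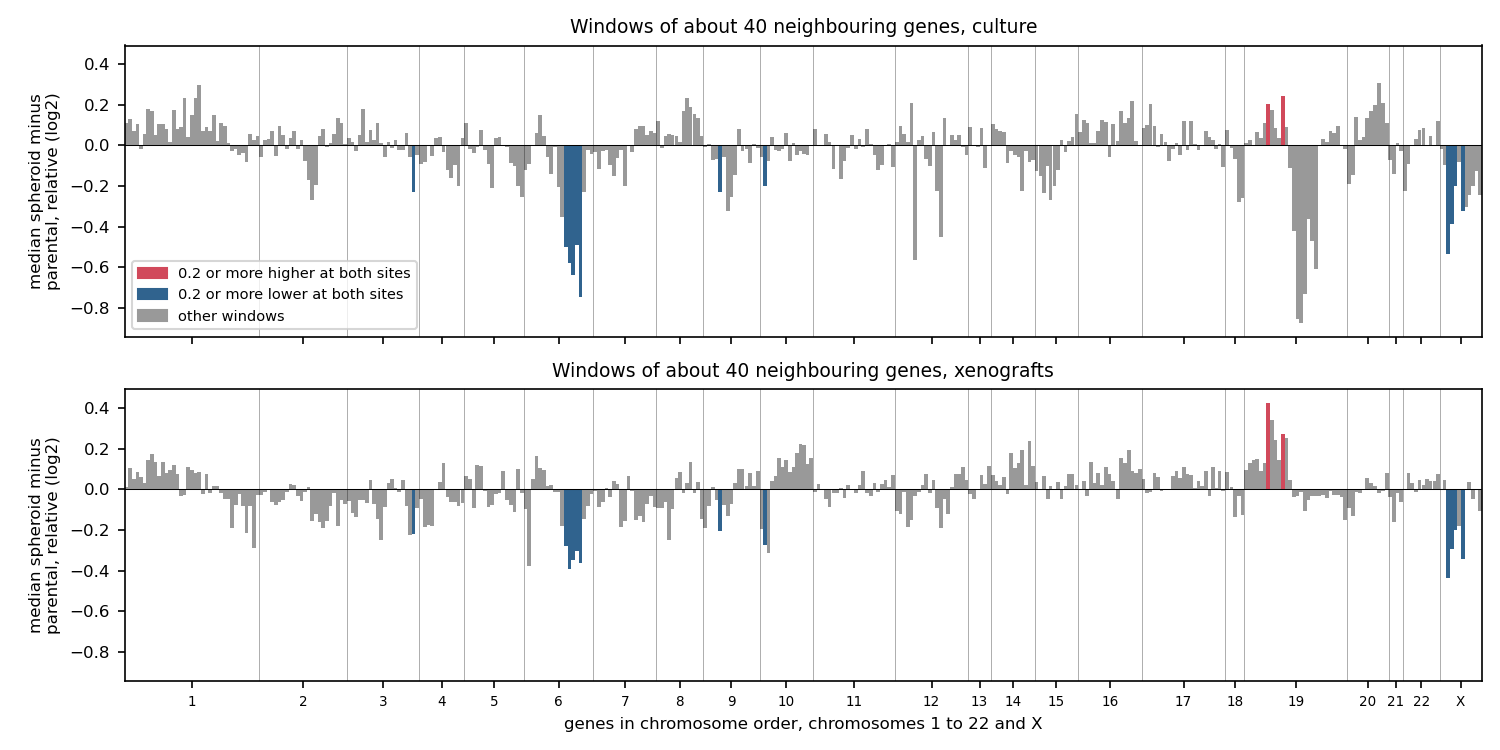
Median log2 difference of spheroid minus parental in windows of about 40 neighbouring genes, relative to the median of all genes in windows, in culture (top) and xenografts (bottom), with the chromosomes in order from left to right. Blue bars are the 12 windows at least 0.2 lower at both sites and red bars the 2 at least 0.2 higher. The deep grey bars on chromosome 19 in culture have no counterpart in xenografts.

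Other stretches had windows at least 0.35 lower in culture, with a xenograft median within 0.1 of that of all genes in windows. On chromosome 19 the 120 genes from FAAP24 to SARS2 had a median of -0.740 in culture and -0.0226 in xenografts, and the 119 genes from COQ8B to EML2-AS1 had -0.422 in culture and -0.0388 in xenografts. On chromosome 12 the 40 genes from ALG10 to C12orf54 had -0.566 in culture and -0.0342 in xenografts. Some genes of these stretches did keep the difference at both sites. The stretch from COQ8B held 7 that kept a lower level, TGFB1, BCKDHA, ERF, PAFAH1B3, ZNF428, KCNN4 and PPP1R37. That from FAAP24 held 2 lower and 3 higher. Between those stretches, the window from MRPS12 to NUMBL had -0.732 in culture and -0.106 in xenografts, with 3 genes that kept a lower level. Of the 42 windows at least 0.2 lower in culture 36 were below 0 in xenografts, against 192 of all 370 windows, and 12 reached 0.2 there. Of the 12 that were at least 0.2 higher in culture 7 were above 0 in xenografts, against 178 of all 370, and 2 reached 0.2.

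The stretches were picked by their differences on these same arrays, which favours separation by origin. Their levels on single arrays were taken relative to the mean of their site. For IL1RAPL1 to MAGEH1 they were -0.041, -0.206 and -0.201 in spheroid cultures, against 0.177, 0.203 and 0.131 in parental cultures, and -0.071, -0.195 and -0.145 in spheroid xenografts, against 0.133, 0.153 and 0.141 in parental xenografts. The groups were separate at both sites, and the parental samples were close together. For PRIM2 to MYB they were -0.074, -0.481 and -0.270 in spheroid cultures, against 0.081, 0.733 and 0.187 in parental cultures, and -0.129, -0.367 and -0.063 in spheroid xenografts, against 0.128, 0.011 and 0.400 in parental xenografts. Here too the groups were separate, but the highest parental values came from parental culture replicate 2 and parental xenograft replicate 3, the arrays with the widest spread of values in their groups (interquartile ranges 3.44 and 3.29). For MYO9B to PGPEP1 they were 0.092, 0.211 and 0.203 in spheroid cultures, against -0.104, -0.428 and -0.135 in parental cultures, and 0.128, 0.215 and 0.136 in spheroid xenografts, against -0.195, -0.064 and -0.119 in parental xenografts.

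Without the widest array of each group, the stretch from PRIM2 to MYB had a median of -0.323 in culture and -0.276 in xenografts, and the one from IL1RAPL1 to MAGEH1 had -0.256 in culture and -0.267 in xenografts. Without parental culture replicates 1 and 2, the culture values were -0.424 and -0.228. The window from OLFM2 to TSPAN16-AS1 overlapped in culture, where spheroid culture replicate 1 (-0.047) lay below parental culture replicate 1 (0.023). The number of gene copies in these cells was not measured here, and its part in the stretches was not tested.

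**Figure D5:**
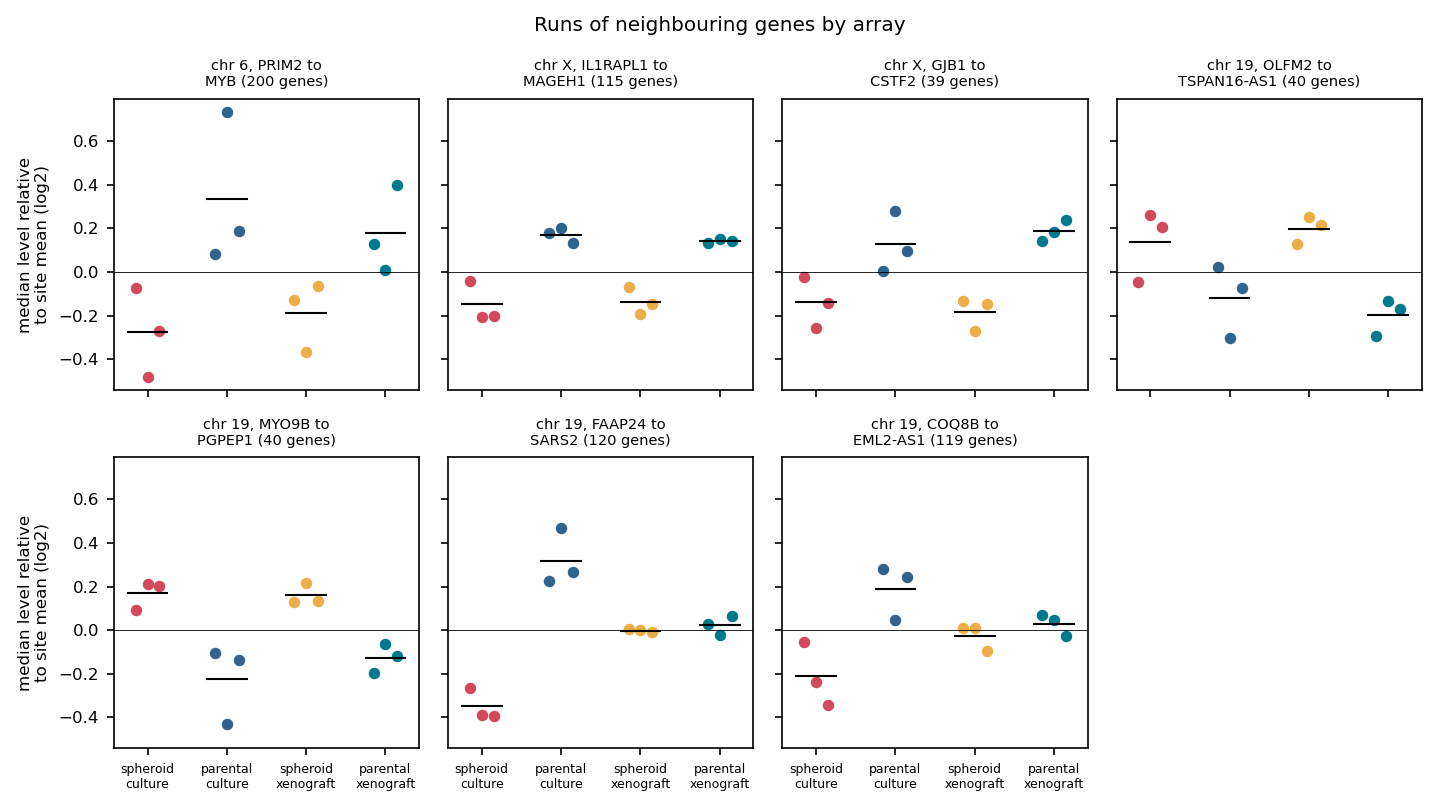
Median level of the genes of 7 stretches on each array, in log2 units relative to the mean of the culture arrays or of the xenograft arrays. Points are arrays in replicate order, bars are group means. The stretches on chromosomes 6 and X and the window from MYO9B on chromosome 19 are separated by origin at both sites, and the stretches from FAAP24 and from COQ8B only in culture.

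In the 50 genes that differed by origin without being separated at both sites, both differences still had the same sign, and 29 overlapped in culture only and 21 in xenografts only. SATB1, an organiser of chromatin, read 9.01, 6.32 and 6.67 in spheroid cultures, against 8.87, 9.34 and 9.08 in parental cultures, and 5.90, 5.12 and 6.56 in spheroid xenografts, against 9.43, 10.0 and 9.89 in parental xenografts. Spheroid culture replicate 1 lay among the parental cultures, and the tumours were far apart, -1.76 (SE 0.57) in culture and -3.91 (SE 0.57) in xenografts. Without probe sets marked for cross-hybridisation or shared transcripts, another SATB1 probe set gave -0.71 (limma adjusted p = 0.214). GATA6, an endodermal transcription factor, differed by -1.43 in culture and -1.85 in xenografts, again with spheroid culture replicate 1 among the parental cultures. GATA6 passed in 2 of the 12 fits without a single array, and not without parental culture replicates 1 and 2 (limma adjusted p = 0.0832). The called genes with the lowest interaction p were BCL6B (1.74 in culture and 0.52 in xenografts), RHBDF1 (0.84 in culture and 0.31 in xenografts) and ICAM1 among higher genes, and KCNJ2, SNAI2 and PHLDB2 (-3.06 in culture and -0.92 in xenografts) among lower genes, and none of the 6 passed the interaction test. By origin, BCL6B, RHBDF1 and PHLDB2 did not pass without parental culture replicates 1 and 2 (limma adjusted p = 0.14, 0.0976 and 0.0971). On another probe set, without those marked for cross-hybridisation or shared transcripts, PHLDB2 differed by -0.33 (limma adjusted p = 0.598).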

How the data were processed

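RNA was measured on 12 arrays, 3 per group. The values are log2 expression levels as deposited by the authors, and the submitters' processing notes name RMA and affy. Their versions, and whether 1 normalisation covered all arrays, are not stated there. The table held 54675 probe sets, of which 41091 had 1 gene symbol. Symbols were updated by gene number for 41037 of them with a RefSeq gene table of GRCh38.p14, and the brightest probe set on average stood for each of 19775 genes.

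R 4.3.3 and limma 3.58.1 (lmFit, eBayes) fitted origin with site as an additive factor (9 residual degrees of freedom), and 1 mean per group (8) for the differences at each site and the interaction. Tests were two-sided, with Benjamini-Hochberg adjustment over all genes and a threshold of 0.05. Precision is limited by having 3 arrays per group, and the additive difference had a median SE of 0.143. The genes described first are the 12 higher and 12 lower with the largest smaller site difference. Provisional symbols (LOC, KIAA, FAM, orf) and antisense or intronic transcripts (-AS1, -IT1) were not named by this rule. Added are called members of the lists, up to 4 per list, 5 stem cell markers, and the 3 called genes in each direction with the lowest interaction p. The members, lists and rules were chosen with earlier results of these data known. Replicate numbers were not taken to pair the samples over all groups. Of 18 same-numbered pairs 11 had a correlation of deviations over 0.1 and 6 were under 0 (lowest -0.565). All 3 pairs of spheroid culture with spheroid xenograft (0.333 to 0.431) and of spheroid xenograft with parental xenograft (0.182 to 0.482) were over 0.1. These values alone do not decide whether the numbers pair the samples, and counts with the replicate number as a block are given below.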

Additional observations from a re-analysis of the deposited data

How the results depend on the processing

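All 12 arrays came from 1 cell line, and the spread between arrays limits every count. The number of genes by origin (279), of those separated at both sites (229) and of those passing the interaction test (27) became 174, 161 and 8 after median centring of each array (52 higher and 122 lower by origin, against 117 and 162). They became 670, 479 and 133 after quantile normalisation again, and 587, 445 and 94 after cyclic loess. Leaving out the _x_at and _s_at probe sets gave 177, 154 and 18, and array weights gave 933, 385 and 184. Without parental culture replicates 1 and 2 they were 163, 160 and 62, and without the widest array of each group, chosen after seeing the data, 3 by origin, all separated at both sites. Where arrays are left out, separation is between fewer values and is met more easily than in the main count of 229. With the replicate number as a block the 3 counts were 268, 201 and 12, and with the block within each site 165, 122 and 4. SNAI2, NRARP, GATA6, TSPAN6, MGST1 and BCL6B did not pass with either block (SNAI2 at a limma adjusted p of 0.0522 and, within site, 0.0815), and CD44 (0.0514), LSS, FZD1, TAP1, ICAM1, JUNB, ANK3, PALLD, SATB1, RHBDF1 and PHLDB2 did not pass with the block within site. Culture arrays alone gave 15 genes (1924 at an unadjusted p under 0.05), xenograft arrays alone 161, and the average of the 2 site differences with 1 mean per group 535. Leaving out 1 array gave 62 to 500 genes by origin, 61 to 454 separated at both sites and 2 to 186 for the interaction (186 without parental culture replicate 2). The mean of all probe sets, the filter on dim genes and a trended robust prior kept all 3 counts within 1.5 times.

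Of the named genes, PALLD (0.060) and CACHD1 (0.11) changed sign when the _x_at and _s_at probe sets were dropped. PROM1, never called, was -0.019 after median centring, -0.0085 after quantile normalisation, -0.0099 after cyclic loess, -0.023 without parental culture replicates 1 and 2, -0.038 without the widest arrays and -0.039 to 0.060 without single arrays. ALDH1A1 was -0.034 with array weights and -0.0071 without parental culture replicates 1 and 2, and NANOG ran from -0.14 to 0.00071 without single arrays. The settings were run for the genes named by the rule, and not for those described under other observations. In all their other combinations of gene and setting the direction held, in 1084 with the call unchanged and in 303 with the call lost. The cause of these changes was not tested.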

Other observations

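Further genes kept the difference and are named here after their values were seen. SFN, the 14-3-3 protein stratifin, was higher in spheroid origin (additive difference 1.73, SE 0.23, limma adjusted p = 0.00673), with all 3 of its probe sets in that direction. The kinase JAK3 was higher by 1.30 at each site and TNNI3, the cardiac form of troponin I, by 1.62 in culture and 1.54 in xenografts. SPINT2, an inhibitor of serine proteases, and KLF5, a transcription factor of epithelial cells, were higher by 1.18 and 1.76 in culture and by 1.95 and 1.09 in xenografts.

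The desmosomal cadherins DSG2 and DSC2 were lower, with differences of -2.26 in culture and -1.17 in xenografts for DSG2 and of -1.09 in culture and -0.88 in xenografts for DSC2. CHST11 and CHSY3, enzymes that build chondroitin sulfate, differed by -1.30 and -1.75 in culture and by -1.29 and -1.14 in xenografts. SUV39H1 and SUV39H2, which methylate lysine 9 of histone H3, lie on the X chromosome and chromosome 10 and differed by -0.77 each in culture and by -0.45 and -0.61 in xenografts. LBR, a receptor of the inner nuclear membrane, differed by -1.16 in culture and -1.14 in xenografts, and the developmental factor ISL1 by -1.21 in culture and -1.14 in xenografts. RAB27B, a GTPase of vesicle secretion, differed by -1.56 in culture and -2.04 in xenografts.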
